A study of Mus musculus with 4 samples.

Results

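The transcriptome of splenic B cells cultured with lipopolysaccharide (LPS) was compared with that of resting B cells, within each of 2 mutant mouse genotypes, ΔleftPAL and ΔIRIS. The comparison used all 4 libraries of the gene count table, 2 from resting cells and 2 from LPS-cultured cells, and 11286 of the 41342 named genes had a mean of at least 50 counts and were tested. Both genotypes were mutants of the 3' regulatory region (3'RR) of the immunoglobulin heavy-chain locus on a 129 background. ΔleftPAL mice lacked the block from hs3a to hs1,2, including the inverted-repeated intervening sequences (IRIS) between these enhancers. In ΔIRIS mice the IRIS were deleted and hs3a was inverted, while every enhancer was kept. The resting cells were splenocytes depleted of CD43-bearing cells after a density gradient, and RNA was taken from them fresh. The LPS cells were purified in the same way, kept for 48 h at 5 μg per ml LPS in medium with fetal calf serum, and passed over a second gradient before RNA extraction. No library of cultured cells without LPS entered the comparison, so LPS, 48 h of culture and the second gradient cannot be told apart. The wt libraries were not analysed here. The mice were 8 to 12 weeks old in the study's description of its RNA sequencing, and each library came from a pool of mice whose size the sources describe differently (4 animals in the labels). With 1 library for each genotype and state, the spread behind every p-value is the difference in the LPS response between the 2 genotypes, and that spread may be technical.

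LPS, a component of the outer membrane of Gram-negative bacteria, is sensed on B cells by TLR4 with its partner MD-2 and by the related receptor RP105, and the signal runs through MyD88 and TRIF adaptors to NF-κB. A resting B cell is small, does not divide and holds few ribosomes. LPS drives it, without T cell help, to grow, to divide, to start class switching and in part to become an antibody-secreting plasmablast, in which the endoplasmic reticulum expands. Levels below are CPM, counts relative to a library's total after TMM scaling, given for ΔleftPAL first and ΔIRIS second. A log2 change is LPS against resting from edgeR's quasi-likelihood fit with genotype as a block, with its standard error (SE), and a gene is said to have risen or fallen where its Benjamini-Hochberg adjusted p over all genes tested was under 0.05. All changes are relative to the total RNA of a library, so a gene whose level per cell did not move falls in CPM if other RNA grows. In such pooled samples, fewer cells of a type and less RNA per cell cannot be told apart.

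The libraries held between 23615496 and 29776108 counted fragments in named genes, and 3 counts, the smallest level that can be shown, corresponded to 0.0965 to 0.129 CPM. Ribosomal RNA of mitochondria took 16% to 21.8% of the counts. Globin transcripts took 4.2% and 2.84% of the counts at rest and 0.00559% and 0.0122% after LPS. Replication-dependent histones moved the other way, from 0.342% and 0.263% to 1.75% and 1.72%. Cytosolic ribosomal protein genes went from 5.21% and 4.54% to 7.67% and 7.49%, and immunoglobulin genes from 0.722% and 0.617% to 2.14% and 1.43%.

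**Figure D1:**
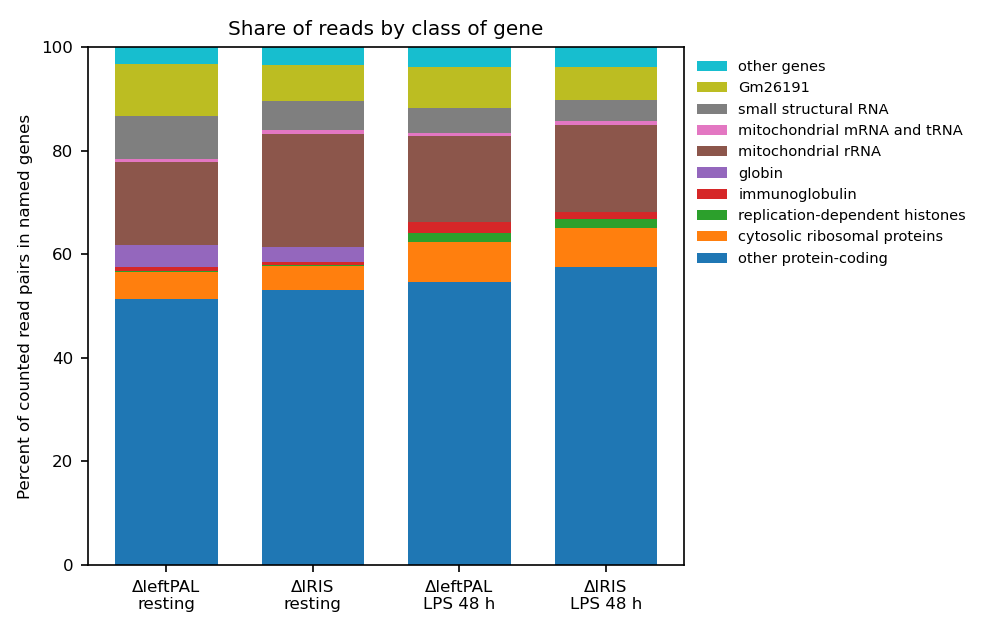
Stacked bars give the percent of counted fragments (vertical axis) in each class of gene for the 4 libraries. Globin is visible in the resting bars only, whereas the histone and immunoglobulin layers are thicker in the LPS bars, where immunoglobulin genes hold 2.14% and 1.43% of the counts.

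B cell markers were present throughout, and markers of other cells were present mainly at rest. The 7 B cell markers, among them Cd79a and Ms4a1, summed to 4260 and 3650 CPM at rest and to 2470 and 2540 CPM after LPS, with none at 0 in any library. The 10 erythroid markers summed to 43700 and 30900 CPM at rest and to 74.9 and 123 CPM after LPS. The 10 monocyte and macrophage markers summed to 772 and 1040 CPM at rest and to 15.3 and 20.4 CPM after LPS, when C1qa had 0 counts in both libraries. Most of the sum after LPS was held by Itgam, which was not called (13.8 and 10.98 CPM at rest and 5.01 and 14.5 CPM after LPS), and Emr1, which fell (75.8 and 93.2 CPM at rest and 7.04 and 3.76 CPM after LPS). The 8 neutrophil markers summed to 12.7 and 3.94 CPM at rest and were all at 0 after LPS. T cell markers went from 61.6 and 49.6 CPM to 18.6 and 17 CPM, and Cd3e, Cd3d and Cd3g had 0 counts in both LPS libraries, when Lck, which was not called (32.3 and 19.4 CPM at rest and 17.4 and 16.2 CPM after LPS), made up nearly all of the sum. NK cell markers (15.5 and 10.7 CPM at rest) and platelet markers (12.9 and 34.3 CPM at rest) were at 0.386 to 1.36 CPM after LPS, and the 6 dendritic cell markers summed to 68.5 and 110 CPM at rest and to 49.3 and 37.5 CPM after LPS. The dendritic marker Itgax fell (32.6 and 60.1 CPM at rest and 0.715 and 0.515 CPM after LPS), whereas Flt3, which was not called (18.7 and 27.5 CPM at rest and 43.6 and 33.9 CPM after LPS), made up most of that sum after LPS. The cell types listed do not cover every source. Amy2a3, a pancreatic amylase, had 891 and 841 counts at rest and 2 and 0 after LPS. Pnlip, a pancreatic lipase, had 314 and 345 counts at rest and 0 and 2 after LPS. The part of other cells in the falls was not tested.

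**Figure D2:**
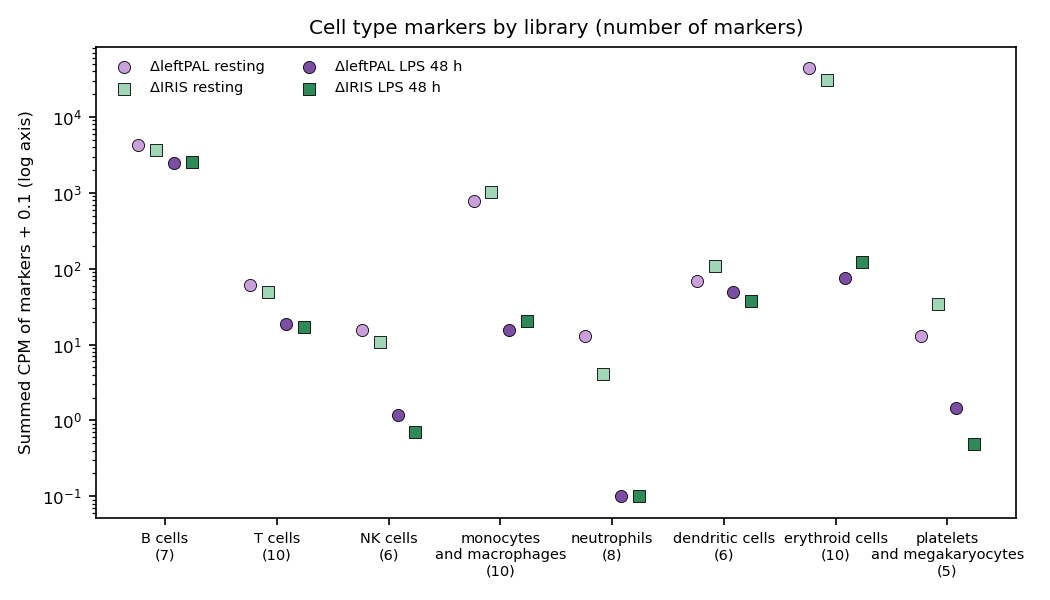
Summed CPM of the markers of 8 cell types plus 0.1 (vertical log axis) in the 4 libraries, with the number of markers in parentheses. The B cell sums of the 4 libraries sit between 2470 and 4260 CPM, whereas erythroid sums drop from 43700 and 30900 CPM at rest to 74.9 and 123 CPM after LPS.

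Of the 11286 genes tested, 3528 rose (31.3%) and 3545 fell (31.4%) after LPS by edgeR's quasi-likelihood test, and 4213 were not called. The split differed with limma on log2(TPM + 0.5) of the kallisto values, which called 2674 rises and 4548 falls of 11316 genes. The median of all genes was at -0.28 there. That run changed the unit, the scaling, the test and the genes tested together, so their parts cannot be told apart. The median size of a called change was 1.15 on the log2 scale, and 2854 of the 7073 called genes changed by less than 2-fold. By a rule without a test, at least 2-fold in the same direction in both genotypes on the log2(CPM + 0.5) scale, 1632 genes rose (14.5%) and 1698 fell (15%). Large rises were rarer than large falls. At least 8-fold in both genotypes, 100 genes rose and 286 fell, and at least 16-fold, 6 rose and 122 fell. Of protein-coding genes tested, 3168 rose and 3304 fell of 10266.

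The response was much alike in both genotypes. Of 1955 genes that rose at least 2-fold in ΔleftPAL cells, 83.5% did so in ΔIRIS cells, and these made up 81.1% of the 2012 genes of ΔIRIS cells. Of 2000 genes that fell at least 2-fold in ΔleftPAL cells, 84.9% did so in ΔIRIS cells, or 75.1% of the 2262 genes of ΔIRIS cells. The 2 responses share no library, and across all genes tested their log2 changes had a Pearson r of 0.93, as a description over genes, which are not independent replicates. The changes of the 2 genotypes differed by less than 0.5 on the log2 scale for 8968 genes (79.5%) and by more than 1 for 582 genes (5.16%). A call rests on a small difference between the genotypes, so agreement among the genes called is largely built in. Of the genes called, 3526 of the 3528 that rose and all 3545 that fell moved in the same direction in both genotypes. The exceptions were Gm8210 and Rprl3, which had next to no reads outside the ΔleftPAL LPS library and were not called with DESeq2 or without the replicate block.

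**Figure D3:**
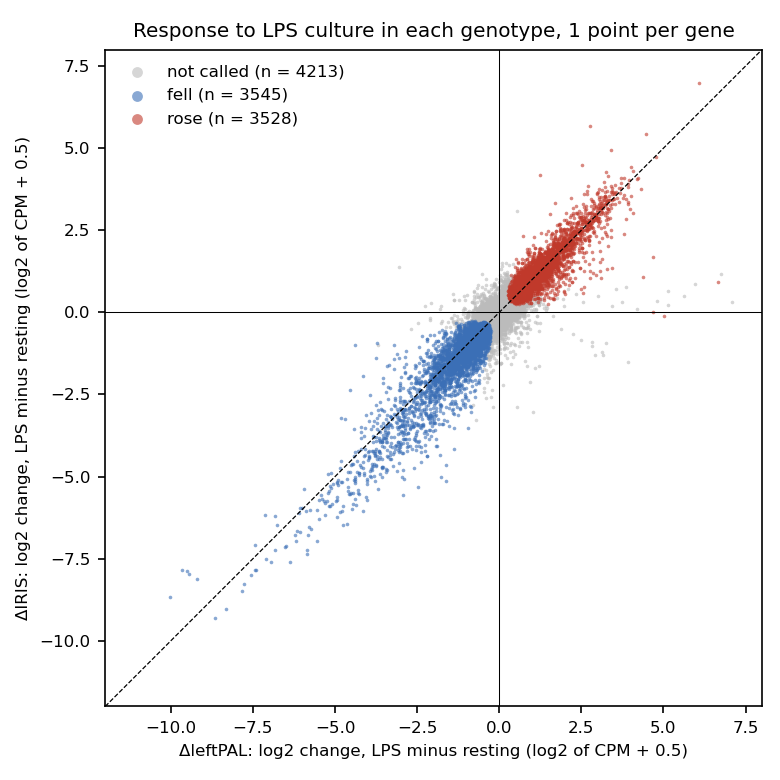
Each point is 1 of 11286 genes, with its log2 change after LPS in ΔleftPAL cells (horizontal axis) and in ΔIRIS cells (vertical axis), coloured by edgeR's call. Points lie along the dashed line of equal change, apart from a small set at the right that rose mainly in ΔleftPAL cells, such as Rps3a3 and Ccl22.

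Gene lists were described by how many of their tested members were called, each read against the 31.3% that rose and the 31.4% that fell of all genes tested. The highest medians belonged to mitosis, histones and DNA replication, followed by lists of growth and secretion. Apart from the markers of other cell types, the lowest belonged to immediate early genes, the markers of mature B cell subsets, MHC class II, homing receptors and quiescence factors. Against these stands a median of -0.02 over all genes tested.

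**Figure D4:**
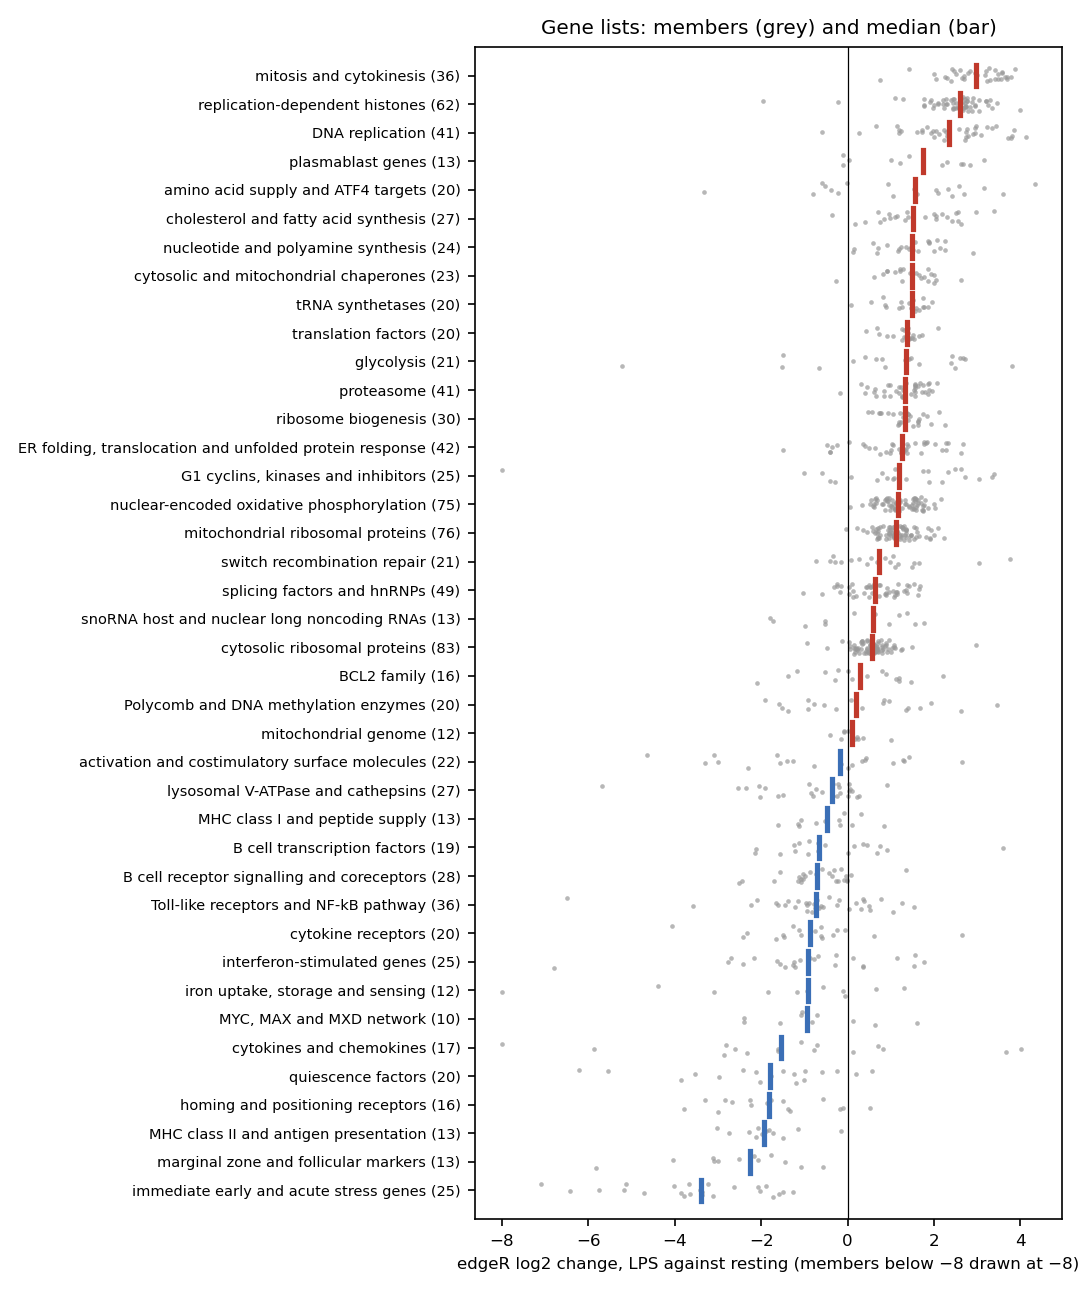
Each row is a gene list with its number of tested members, each grey point the log2 change of a member (horizontal axis, values below -8 drawn at -8) and each bar the median. The medians run from 2.98 for mitosis and cytokinesis to -3.40 for immediate early genes.

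Genes of cell division rose almost without exception. Of 41 genes of DNA replication, 39 rose and 1 fell, with a median log2 change of 2.34, against 31.3% and 31.4% of all genes. Mcm10, which joins the replicative helicase at its start, stood at 5.19 and 5.53 CPM at rest and 88.2 and 98.4 CPM after LPS (log2 change 4.12 ± 0.13, adjusted p = 0.000791). Cdc45, a subunit of the active helicase, stood at 6.22 and 5.93 CPM at rest and 87.3 and 88.7 CPM after LPS (log2 change 3.86 ± 0.13). Rrm2, the subunit of ribonucleotide reductase that limits deoxynucleotide supply, stood at 16.8 and 24.8 CPM at rest and 279.6 and 291 CPM after LPS (log2 change 3.80 ± 0.18). The LPS libraries lay above both resting libraries for each of these genes. Pcna, the sliding clamp, stood at 145 and 173 CPM at rest and 474 and 490.1 CPM after LPS (log2 change 1.61 ± 0.12). Cdt1, the licensing factor that is destroyed once S phase starts, was the member that fell, from 49.5 and 60.4 CPM to 38.5 and 34.2 CPM (log2 change -0.59 ± 0.16, adjusted p = 0.0295). That call was lost with kallisto estimated counts and without either ΔIRIS library.

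All 36 genes of mitosis and cytokinesis rose in the main test, with a median log2 change of 2.98, and 35 did so at least 2-fold in both genotypes. Ccnb1, the mitotic cyclin, had the largest change of the list, from 14.7 and 14.4 CPM to 196 and 229.9 CPM (log2 change 3.87 ± 0.15, adjusted p = 0.000791). Cdc20, the activator of the anaphase-promoting complex, went from 10.4 and 9.03 CPM to 135 and 132 CPM (log2 change 3.78 ± 0.14). Top2a, the topoisomerase that untangles sister chromatids, went from 95.8 and 113 CPM to 999 and 1224 CPM (log2 change 3.41 ± 0.12). Cenpa, the histone that marks centromeres, changed least, from 34.5 and 67.7 CPM to 77.9 and 84.9 CPM (log2 change 0.75 ± 0.23, adjusted p = 0.0469). It was not called without the replicate block (edgeR adjusted p = 0.113) or without the ΔleftPAL LPS, ΔIRIS LPS or ΔleftPAL resting library (0.14 to 0.249). Mki67, a marker of cycling cells, was among the 10 genes that gained most in CPM, from 201 and 288 CPM to 1477 and 1536 CPM. Mybl2, a transcription factor of the complex that activates mitotic genes, went from 5.84 and 5.998 CPM to 94.8 and 91.1 CPM (log2 change 3.97 ± 0.13).

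Promoters of these mitotic genes often held the CCAAT box, bound by NF-Y, and the CHR element, bound by the MuvB complexes. RefSeq promoters (250 bases before to 50 after the start, build GRCm38.p6) were matched for 8454 of the genes tested, 486 of them by an older symbol, and both strands were searched. CCAAT was found in 25 of 31 promoters of the mitosis list (80.6%) against 40.1% of all promoters searched, and TTTGAA in 23 of 31 (74.2%) against 12.4%. Within the 200 bases before the start alone, TTTGAA was found in 35.5% of the list and 7.9% of all promoters. The list was made of textbook genes, some known for these elements, and the shares are a description. The stretches below, all upstream of the start, are of the 3 members with the largest rise that held both, with each CCAAT and TTTGAA in capitals (ATTGG is CCAAT on the other strand). Cdc20 lies at chr4:118437344-118437411 (minus strand), Cdk1 at chr10:69352913-69353135 (minus strand) and Ncapg at chr5:45669734-45669915 (plus strand).
Cdc20: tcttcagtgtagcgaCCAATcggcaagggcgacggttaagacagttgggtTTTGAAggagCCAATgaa
Cdk1: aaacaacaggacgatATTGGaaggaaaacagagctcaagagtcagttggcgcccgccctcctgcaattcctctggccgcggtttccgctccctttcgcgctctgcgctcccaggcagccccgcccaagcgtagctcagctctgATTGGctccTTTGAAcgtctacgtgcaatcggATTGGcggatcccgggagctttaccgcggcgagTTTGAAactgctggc
Ncapg: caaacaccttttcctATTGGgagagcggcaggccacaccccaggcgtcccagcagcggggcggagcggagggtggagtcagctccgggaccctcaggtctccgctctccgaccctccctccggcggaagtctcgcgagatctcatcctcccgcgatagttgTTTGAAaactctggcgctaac

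In Cdc20 both elements lie within the last 68 bases before the start, and in Ncapg they are farther apart. Cdk1, the kinase that starts mitosis, had 9.22 and 12.5 CPM at rest and 122 and 134 CPM after LPS (log2 change 3.56 ± 0.15), and Ncapg, a condensin subunit, had 14.1 and 14.6 CPM at rest and 148 and 176 CPM after LPS (log2 change 3.49 ± 0.14). The DNA replication list was also made of textbook genes, and its motif shares are a description. The E2F site was searched as TTTGGCGC, TTTCCCGC, TTTCGCGC and TTTGCCGC. It was found in 12 of 33 promoters of the DNA replication list (36.4%), in 6.97% of the promoters of genes that rose, in 2.77% of those of genes that fell and in 4.6% of all. The 2 members with the largest rise that held it upstream of the start were Cdc6, which loads the helicase at origins, at chr11:98907998-98908035 (plus strand), and Orc1, an origin recognition subunit, at chr4:108579412-108579449 (plus strand). The E2F site is in capitals, read on the other strand in both.
Cdc6: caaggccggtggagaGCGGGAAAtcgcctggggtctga
Orc1: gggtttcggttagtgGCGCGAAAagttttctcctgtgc

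Cdc6 went from 6.14 and 7.01 CPM to 90.9 and 88.7 CPM (log2 change 3.77 ± 0.14), and Orc1 from 3.09 and 4.84 CPM to 35.2 and 37.9 CPM (log2 change 3.22 ± 0.20).

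Replication-dependent histones, whose mRNAs carry no poly(A) tail and are kept in total RNA libraries, rose in 60 of 62 tested members, with a median log2 change of 2.60. Hist1h3g had the largest change (8.71 and 5.93 CPM at rest and 119.6 and 108 CPM after LPS, log2 change 3.98 ± 0.17, adjusted p = 0.000791). Hist1h1b, a linker histone, went from 56.4 and 54.5 CPM to 552 and 573 CPM (log2 change 3.34 ± 0.12). Near-identical histone copies share reads, so single members are uncertain. Hist3h2a fell in the gene counts (log2 change -1.95 ± 0.25, adjusted p = 0.00367) but rose by 1.47 with kallisto estimated counts (edgeR adjusted p = 0.000926), and its direction therefore rests on the table.

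Of 25 genes of G1, 18 rose and 3 fell. Ccnd2, the D-type cyclin of B cells, went from 48.7 and 52.8 CPM to 338 and 328 CPM (log2 change 2.72 ± 0.13, adjusted p = 0.000791), and Ccne1, a cyclin of S phase entry, from 4.93 and 4.55 CPM to 45.8 and 50.7 CPM (log2 change 3.35 ± 0.15). Cdkn1b, which encodes the inhibitor p27, fell from 114 and 166 CPM to 68.99 and 67.4 CPM (log2 change -1.01 ± 0.18, adjusted p = 0.00937). Ccnd1, a D-type cyclin that is scarce in B cells, had 479 and 1058 counts at rest and 1 count in each LPS library, a ratio of 575 in ΔleftPAL (exact counting interval 103 to 22800) and of 1190 in ΔIRIS (213 to 47000). With kallisto estimated counts the log2 change was smaller, -5.36 against -9.59 in the gene counts (edgeR adjusted p = 0.000352), so the size of the fall depends on the table. It moved as the macrophage markers did, whose part was not tested. Cdkn1a, the p53 target p21, was not called (0.429 and 3.58 CPM at rest and 10.5 and 6.11 CPM after LPS, log2 change 2.32 ± 0.96, adjusted p = 0.0945), and its resting levels differed between the genotypes.

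Most factors that hold lymphocytes at rest went down. Of 20 quiescence factors, 17 fell and 0 rose, with a median log2 change of -1.79. The 3 others were not called, among them Ddit4 (21.9 and 11.7 CPM at rest and 24.7 and 22.9 CPM after LPS, log2 change 0.57 ± 0.23, adjusted p = 0.091). Klf2, which keeps naive lymphocytes quiescent and controls their trafficking, went from 188 and 169 CPM to 12.1 and 19.8 CPM (log2 change -3.52 ± 0.26, adjusted p = 0.00125). Btg1, an antiproliferative factor, went from 1097 and 1469.8 CPM to 191 and 136 CPM (log2 change -2.98 ± 0.26), and Foxo1 from 105 and 191 CPM to 42.1 and 39.1 CPM (log2 change -1.80 ± 0.27). Tsc22d3, the glucocorticoid target GILZ, went from 319 and 538 CPM to 8.91 and 9.01 CPM (log2 change -5.53 ± 0.25). For Klf2, Btg1, Foxo1 and Tsc22d3 the LPS and resting ranges did not overlap. Myc itself, which drives growth early after activation, stood lower at 48 h, at 40.3 and 39.3 CPM, than at rest, at 88.6 and 79.2 CPM (log2 change -1.07 ± 0.12, adjusted p = 0.00255). Of the 10 tested genes of its network 7 fell, among them the antagonists Mxd1 (log2 change -2.39 ± 0.24) and Mnt (log2 change -2.39 ± 0.31), while Mxd3, an antagonist expressed in cycling cells, rose (log2 change 1.61 ± 0.23). The resting levels here are those of freshly isolated cells, and the part of isolation in these changes was not tested.

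Genes of ribosome production and translation rose. Of 30 ribosome biogenesis genes 29 rose and 0 fell, with a median log2 change of 1.33. Nop16, a nucleolar assembly factor, had the largest change (15.02 and 12.8 CPM at rest and 67.5 and 63.8 CPM after LPS, log2 change 2.24 ± 0.13), and Npm1, nucleophosmin, gained 1562 CPM, from 416 and 519.7 CPM to 1921 and 2139.5 CPM (log2 change 2.12 ± 0.12, adjusted p = 0.000906). All 20 translation factors rose in the main test, led by Eif5a (111 and 123 CPM at rest and 477 and 515 CPM after LPS, log2 change 2.09 ± 0.11). So did 19 of 20 tRNA synthetases, led by Yars (log2 change 1.96 ± 0.12), with Vars not called (log2 change 0.08 ± 0.13, adjusted p = 0.618). Of the translation factors, Eef1a1 (log2 change 0.42 ± 0.11, adjusted p = 0.0284) was not called without the replicate block (edgeR adjusted p = 0.115) or without any 1 of the 4 libraries (0.0977 to 0.499). Structural proteins of the cytosolic ribosome had a smaller median. Of 83 tested, 59 rose and 2 fell, with a median log2 change of 0.56, and 7 rose at least 2-fold in both genotypes, led by Rps27l, a ribosomal protein-like gene known as a p53 target (17.1 and 18.9 CPM at rest and 141 and 142 CPM after LPS, log2 change 2.97 ± 0.13, adjusted p = 0.000791). Of the members that fell, Rpl24 had 62 to 134 gene counts against 6138 to 14924 kallisto estimated counts, with which it rose by 0.97 (edgeR adjusted p = 0.00196), and its fall was not called with DESeq2.

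The E-box CACGTG, bound by MYC with MAX, was found in 6 of 27 promoters of the ribosome biogenesis list (22.2%), in 11.2% of promoters of genes that rose, in 11.2% of those of genes that fell and in 10.8% of all. In the 200 bases before the start alone the order reversed, with 7.41% of the list and 7.77% of all. Nop2, a nucleolar RNA methyltransferase that rose from 43.5 and 33.03 CPM to 127 and 142 CPM (log2 change 1.83 ± 0.18), held it in capitals at chr6:125131808-125131843 (plus strand).
Nop2: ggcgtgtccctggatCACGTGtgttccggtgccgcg

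Metabolic genes rose for the most part. Of 24 genes of nucleotide and polyamine synthesis 22 rose and 0 fell, led by Srm, spermidine synthase (16.1 and 11.2 CPM at rest and 102 and 100.1 CPM after LPS, log2 change 2.90 ± 0.18, adjusted p = 0.000996). Of 21 glycolysis genes 16 rose and 4 fell. Ldhb, a lactate dehydrogenase subunit, had the largest rise (0.343 and 0.145 CPM at rest and 3.004 and 3.73 CPM after LPS, log2 change 3.80 ± 0.48). Gapdh went from 197 and 176 CPM to 1136 and 1248 CPM (log2 change 2.68 ± 0.14), and Ldha, the other subunit, from 118 and 109 CPM to 603 and 667 CPM (log2 change 2.48 ± 0.13). The glucose transporters fell, Slc2a1 from 37.1 and 52.8 CPM to 26.5 and 29.3 CPM (log2 change -0.67 ± 0.15, adjusted p = 0.0167) and Slc2a3 from 53.2 and 52.8 CPM to 22.4 and 15.4 CPM (log2 change -1.51 ± 0.18). The Slc2a1 call was lost without 3 of the 4 libraries in turn. Hk3, the hexokinase of myeloid cells (log2 change -5.23 ± 0.33), and Eno3 (log2 change -1.49 ± 0.22) fell as well. Of 27 genes of cholesterol and fatty acid synthesis 25 rose and 1 fell. Idi1 went from 7.72 and 8.71 CPM to 70.2 and 104 CPM (log2 change 3.39 ± 0.16, adjusted p = 0.000793) and Hmgcs1, an early enzyme of the sterol pathway, from 46.9 and 41.2 CPM to 212 and 313 CPM (log2 change 2.55 ± 0.23), with the ΔIRIS library the higher after LPS for both. The member that fell was the desaturase Scd1 (592 and 833 CPM at rest and 460.2 and 655 CPM after LPS, log2 change -0.35 ± 0.11, adjusted p = 0.0421). Its LPS and resting ranges overlapped. The call was lost with kallisto estimated counts, with total counts, without the replicate block and without any 1 of the 4 libraries.

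Of 20 genes of amino acid supply 13 rose and 2 fell. Cth, which makes cysteine from cystathionine, had the largest change, with 7 and 3 counts at rest and 135 and 103 after LPS, ratios of 16.1 in ΔleftPAL and 30.6 in ΔIRIS cells (exact counting interval of the latter 10.2 to 151). The serine and one-carbon enzymes Shmt1 (9.10 and 7.37 CPM at rest and 88.4 and 111 CPM after LPS, log2 change 3.59 ± 0.20, 2.69 with kallisto estimated counts) and Psat1 (19.01 and 15.8 CPM at rest and 139.8 and 172 CPM after LPS, log2 change 3.16 ± 0.19) and the asparagine synthetase Asns (2.87 and 6.03 CPM at rest and 27.04 and 28.5 CPM after LPS, log2 change 2.70 ± 0.29, adjusted p = 0.00245) also rose. Atf4, the factor known to drive such enzymes under amino acid shortage, was not called (log2 change -0.53 ± 0.18, adjusted p = 0.0574), and its target Ddit3, which encodes the stress factor CHOP, fell from 38.4 and 91.2 CPM to 6.44 and 5.50 CPM (log2 change -3.32 ± 0.40). The sterol element TCACNCCAC was found in 1 of 19 promoters of the sterol list (1.01% of all), that of Hmgcs1 at chr13:119690199-119690237 (plus strand). The amino acid response element TGATGNAA was found in 3 of 17 promoters of the amino acid list (17.6%, against 2.28% of all), one of them that of Asns at chr6:7693210-7693247 (minus strand). Both lists were made of textbook genes, and the shares are a description. The elements are in capitals.
Hmgcs1: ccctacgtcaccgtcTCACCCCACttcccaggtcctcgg
Asns: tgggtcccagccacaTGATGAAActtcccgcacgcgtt

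Mitochondrial genes of the nucleus rose together. Of 75 subunits of oxidative phosphorylation 72 rose and 0 fell, with a median log2 change of 1.17, and of 76 mitochondrial ribosomal proteins 73 rose and 0 fell, with a median of 1.12. Atp5g1, a subunit of ATP synthase, went from 29.9 and 25.9 CPM to 134 and 116 CPM (log2 change 2.17 ± 0.12). Genes of the mitochondrial genome gave 1 call in 12 (mt-Nd6, log2 change 1.00 ± 0.31, adjusted p = 0.0451). That call was lost without the replicate block, without 3 of the 4 libraries in turn and with kallisto estimated counts (0.20), with which mt-Co2 was called instead (0.96, edgeR adjusted p = 0.00518). In the gene table mt-Atp6, mt-Co2, mt-Co3 and mt-Nd3 had under 10% of their kallisto estimated counts, which limits what this list shows. Of 41 proteasome genes 39 rose and 0 fell, led by Psma6 (49.7 and 51.9 CPM at rest and 198 and 227 CPM after LPS, log2 change 2.06 ± 0.12), while Psmb10 of the immunoproteasome was not called (log2 change -0.18 ± 0.18, adjusted p = 0.409). Of 23 chaperones 22 rose, led by the mitochondrial chaperonin Hspd1 (97.4 and 124 CPM at rest and 612 and 739.8 CPM after LPS, log2 change 2.62 ± 0.12), and Hsp90ab1 gained 1633 CPM.

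Genes of the secretory pathway and of plasmablasts rose in part. Of 42 genes of the endoplasmic reticulum 33 rose and 1 fell, with a median log2 change of 1.26. Xbp1, the factor that expands the organelle in secretory cells, went from 64.8 and 67.7 CPM to 375 and 245 CPM (log2 change 2.19 ± 0.21, adjusted p = 0.00185). Derl3, which helps to remove misfolded proteins, went from 4.03 and 3.87 CPM to 28.8 and 20.6 CPM (log2 change 2.62 ± 0.19), and Creld2 from 15.4 and 16.6 CPM to 90.6 and 66.4 CPM (log2 change 2.27 ± 0.18). Hsp90b1, the chaperone GRP94, went from 269 and 384 CPM to 1178 and 1119.7 CPM (log2 change 1.84 ± 0.18). Hspa5, the chaperone BiP, was called as well (499.9 and 790.5 CPM at rest and 1060.1 and 1044 CPM after LPS, log2 change 0.74 ± 0.20, adjusted p = 0.0292). It was not called without the ΔleftPAL LPS, ΔIRIS LPS or ΔleftPAL resting library. Dnajb9 fell from 95.5 and 169 CPM to 49.7 and 41.1 CPM (log2 change -1.49 ± 0.30, adjusted p = 0.0125). Of 13 plasmablast genes 10 rose and 0 fell. Prdm1, which encodes Blimp-1, the factor that ends the B cell programme, went from 4.76 and 7.59 CPM to 73.2 and 41.4 CPM (log2 change 3.17 ± 0.40, adjusted p = 0.00364), and Mzb1, a chaperone of immunoglobulin, from 77.1 and 51.8 CPM to 358 and 270.4 CPM (log2 change 2.30 ± 0.12). After LPS both Prdm1 and Xbp1 were higher in ΔleftPAL than in ΔIRIS cells, a difference with no test. Irf4, needed for plasma cells and for switching, was not called, and its resting levels lay farther apart than the means of the states (299 and 634 CPM at rest and 442 and 369.8 CPM after LPS, log2 change -0.11 ± 0.34, adjusted p = 0.801), and nor was Sdc1, the plasma cell marker CD138 (13.3 and 18.8 CPM at rest and 17.2 and 12.4 CPM after LPS, log2 change -0.11 ± 0.27, adjusted p = 0.741).

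The ER stress response element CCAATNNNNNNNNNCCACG, which contains a CCAAT box and is bound by NF-Y and ATF6, was rare. It was found in 15 of 8454 promoters (0.177%), and 9 of these 15 belonged to the 35 promoters of the endoplasmic reticulum list (25.7%), which was also made of textbook genes. It was found in 9 promoters of genes that rose and in 2 of genes that fell. The 4 members with the largest rise that held it upstream of the start were Derl3 at chr10:75893227-75893275 (plus strand), Creld2 at chr15:88819505-88819553 (plus strand), Hsp90b1 at chr10:86705518-86705671 (minus strand) and Pdia6 at chr12:17266476-17266524 (plus strand), with the element in capitals on either strand.
Derl3: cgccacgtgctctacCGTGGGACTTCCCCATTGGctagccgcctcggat
Creld2: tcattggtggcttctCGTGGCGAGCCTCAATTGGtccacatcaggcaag
Hsp90b1: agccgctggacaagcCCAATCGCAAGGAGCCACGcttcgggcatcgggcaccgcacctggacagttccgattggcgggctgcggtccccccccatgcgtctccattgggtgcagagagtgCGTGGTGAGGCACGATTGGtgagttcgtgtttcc
Pdia6: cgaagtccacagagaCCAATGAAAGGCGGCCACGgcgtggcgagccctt

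Hsp90b1 held 2 copies in opposite orientation. Pdia6, a protein disulphide isomerase, went from 118 and 119 CPM to 467 and 374 CPM (log2 change 1.82 ± 0.14).

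Most immunoglobulin transcripts rose. Ighm, the μ constant gene, gained most of all genes in CPM, 6069, from 3516 and 3177 CPM to 11279 and 7552 CPM (log2 change 1.47 ± 0.15, adjusted p = 0.00232), and Igkc, the κ constant gene, went from 1253 and 941 CPM to 3524 and 1855 CPM (log2 change 1.24 ± 0.17). For both the ΔleftPAL library was the higher after LPS. Igj, the joining chain of secreted IgM and IgA, rose (log2 change 1.01 ± 0.18). The call of Igkc was lost without the ΔleftPAL LPS or ΔIRIS resting library, and that of Igj without either of these or the ΔleftPAL resting library. Of 91 light-chain variable segments tested 73 rose and 0 fell, and of 59 other variable segments 49 rose and 0 fell. Igha, the α constant gene, fell from 32.1 and 7.70 CPM to 0.644 and 0.386 CPM (log2 change -5.08 ± 0.38, adjusted p = 0.00132). Of the 21 genes of switch recombination repair 13 rose and 2 fell, beside 31.3% and 31.4% of all genes tested. Those that rose included Exo1 (4.33 and 3.97 CPM at rest and 51.4 and 60.8 CPM after LPS, log2 change 3.75 ± 0.17, 3.11 with kallisto estimated counts), Apex1 (log2 change 1.64 ± 0.12) and Ung, a uracil glycosylase (7.08 and 11.02 CPM at rest and 25.5 and 24.5 CPM after LPS, log2 change 1.49 ± 0.22). The members that fell were Mdc1 (log2 change -0.74 ± 0.12) and Trp53bp1 (log2 change -0.40 ± 0.11, adjusted p = 0.035), which hold broken ends. The call of Trp53bp1 was lost with DESeq2, with kallisto estimated counts, with total counts and without 3 of the 4 libraries in turn.

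**Figure D5:**
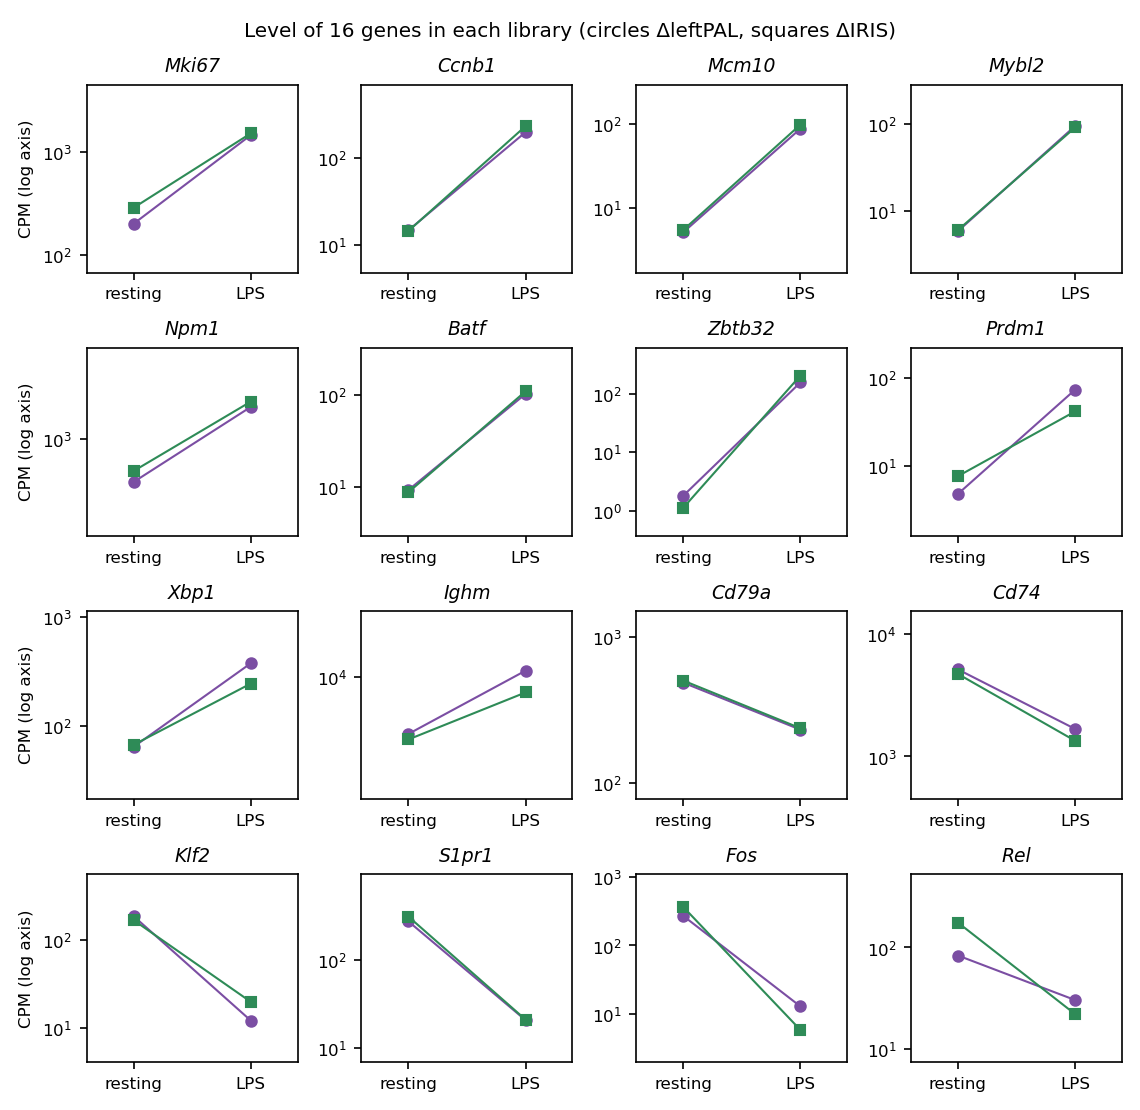
CPM (vertical log axis) of 16 genes in resting and LPS cells, with a line for each genotype (circles ΔleftPAL, squares ΔIRIS). Genes of division, growth and antibody secretion rise along both lines, and Cd79a, Cd74, Klf2, S1pr1, Fos and Rel fall along both.

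Of 19 B cell transcription factors 6 rose and 10 fell, beside 31.3% and 31.4% of all genes tested, so that the share that rose was near the background. Pax5, the factor that fixes B cell identity, went from 146 and 151 CPM to 95.9 and 89.7 CPM (log2 change -0.68 ± 0.12, adjusted p = 0.00913), a call lost without the ΔIRIS LPS library. Ebf1 went from 193 and 234 CPM to 102 and 94.2 CPM (log2 change -1.12 ± 0.15). Bach2, which holds back plasma cell fate, went from 127 and 136 CPM to 53.9 and 56.97 CPM (log2 change -1.24 ± 0.12), and Ets1 from 840.1 and 1000.1 CPM to 214 and 202 CPM (log2 change -2.14 ± 0.14). Batf, an AP-1 factor needed for class switching, had the largest rise (9.18 and 8.67 CPM at rest and 104 and 111 CPM after LPS, log2 change 3.59 ± 0.13). Of 28 genes of B cell receptor signalling 1 rose and 18 fell. Cd79a, a signalling chain of the receptor, went from 485 and 501 CPM to 231 and 236 CPM (log2 change -1.08 ± 0.11, adjusted p = 0.00217) and the kinase Blk from 306 and 249.8 CPM to 101 and 85.7 CPM (log2 change -1.57 ± 0.12). Btk, Syk and Plcg2 were not called. Fcgr2b, the inhibitory Fc receptor, was the member that rose (82.7 and 61.03 CPM at rest and 168 and 197 CPM after LPS, log2 change 1.36 ± 0.20).

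Most markers of mature subsets, homing receptors and genes of MHC class II presentation fell. Of 13 marginal zone and follicular markers 12 fell and 0 rose, with a median log2 change of -2.25. Cr2, complement receptor CD21, went from 837 and 541 CPM to 173 and 80.9 CPM (log2 change -2.51 ± 0.16, adjusted p = 0.00107). Fcer2a, the follicular marker CD23, went from 271 and 295 CPM to 69.2 and 50.8 CPM (log2 change -2.25 ± 0.18), and Hes1, a target of Notch2 signalling, from 34.5 and 39.9 CPM to 2.25 and 2.25 CPM (log2 change -4.04 ± 0.16). Of 16 homing receptors 13 fell and 1 rose. S1pr1, which lets lymphocytes leave the tissue, went from 271 and 307 CPM to 20.7 and 21.00 CPM (log2 change -3.79 ± 0.14, adjusted p = 0.000791). Ccr7 (156 and 568 CPM at rest and 33.7 and 27.1 CPM after LPS) and Cxcr4 (179 and 499 CPM at rest and 44.1 and 40.1 CPM after LPS) fell as well, but with resting levels that differed widely between the genotypes. Itgal, an integrin chain, was the member that rose (log2 change 0.52 ± 0.12, adjusted p = 0.0182), a call lost without 3 of the 4 libraries in turn. Of 13 genes of MHC class II presentation 12 fell and 0 rose, all 12 at least 2-fold in both genotypes. Cd74, the invariant chain, fell by 3426 CPM, from 5147 and 4728 CPM to 1679.7 and 1344 CPM (log2 change -1.72 ± 0.12, adjusted p = 0.00118), and its activator Ciita went from 429 and 313 CPM to 104 and 104 CPM (log2 change -1.82 ± 0.16). H2-Aa, an α chain, went from 2486 and 2344 CPM to 691 and 535 CPM (log2 change -1.99 ± 0.13). Of 13 genes of class I presentation 6 fell, 1 rose (Psmb8, log2 change 0.84 ± 0.17, a call lost without either LPS library) and 6 were not called, beside 31.4% of all genes tested that fell, and H2-K1 went from 1212 and 937 CPM to 557 and 413 CPM (log2 change -1.15 ± 0.11). Macrophages carry MHC class II as well, and the part of their markers, which went from 772 and 1040 CPM to 15.3 and 20.4 CPM, was not tested.

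Of 36 genes of Toll-like receptors and NF-κB 6 rose and 22 fell, beside 31.3% and 31.4% of all genes tested, with a median log2 change of -0.73. The largest fall of the list was that of Cd14, the LPS coreceptor, which is also 1 of the macrophage markers (144 and 190 counts at rest and 3 and 1 after LPS, log2 change -6.49 ± 0.49). The macrophage markers fell alongside the list, and their part was not tested. Tlr4 went from 31.8 and 26.6 CPM to 16.3 and 18.7 CPM (log2 change -0.73 ± 0.17, adjusted p = 0.0184, a call lost without the ΔleftPAL LPS library) and Cd180, which encodes RP105, from 121 and 116 CPM to 44.3 and 46.5 CPM (log2 change -1.38 ± 0.12). Ly96, which encodes MD-2, was low and not called (3.05 and 2.89 CPM at rest and 1.86 and 1.90 CPM after LPS, log2 change -0.66 ± 0.27, adjusted p = 0.0907). Rel, the c-Rel subunit, went from 83.3 and 176 CPM to 30.3 and 21.97 CPM (log2 change -2.23 ± 0.41). Nfkb1 went from 191 and 206 CPM to 258 and 258 CPM (log2 change 0.38 ± 0.11, adjusted p = 0.0415), a rise not called without 3 of the 4 libraries in turn. Nfkbia, the inhibitor IκBα, was not called (log2 change 0.51 ± 0.18, adjusted p = 0.0694). Tnfaip3, the inhibitor A20, fell (149 and 433 CPM at rest and 80.5 and 79.7 CPM after LPS, log2 change -1.67 ± 0.41, adjusted p = 0.0232). The Tnfaip3 call was lost without either LPS library. The adaptors Ticam1 and Ticam2 rose (log2 change 1.05 ± 0.18 and log2 change 1.54 ± 0.23). The κB site, searched as GGGNNTTTCC and GGGNNTTCCC, was found in 29.6% of the list's 27 promoters and in 3.79% of promoters of genes that rose, 3.97% of those of genes that fell and 3.68% of all. This list was made of textbook genes too, and the shares are a description.

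Immediate early and acute stress genes had the lowest median of the lists other than markers of other cell types. Of 25 tested 24 fell and 0 rose, with a median log2 change of -3.40 (-2.54 in ΔleftPAL and -3.98 in ΔIRIS cells). Fos went from 272 and 369 CPM to 12.8 and 5.79 CPM (log2 change -5.18 ± 0.46, adjusted p = 0.00166), Fosb from 88.9 and 144 CPM to 0.751 and 0.933 CPM (log2 change -7.09 ± 0.18), Nr4a1 from 109.8 and 332 CPM to 3.90 and 3.28 CPM (log2 change -5.74 ± 0.53) and Jun from 234 and 282 CPM to 30.1 and 25.1 CPM (log2 change -3.22 ± 0.19). For each of these the resting level was higher in ΔIRIS cells. Freshly isolated cells were compared with cultured ones here, and the part of isolation was not tested.

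Of 22 surface molecules of activation 5 rose and 9 fell, beside 31.3% and 31.4% of all genes tested. Il2ra, the interleukin 2 receptor α chain, went from 1.97 and 2.75 CPM to 14.4 and 15.02 CPM (log2 change 2.65 ± 0.23, adjusted p = 0.00154). With kallisto estimated counts its change was 1.27 (edgeR adjusted p = 0.00261). Tnfrsf13b, the receptor TACI, went from 137 and 102 CPM to 321 and 311 CPM (log2 change 1.42 ± 0.15). Cd86 (55.2 and 94.7 CPM at rest and 25.1 and 21.6 CPM after LPS, log2 change -1.64 ± 0.27), Cd69 (152 and 222 CPM at rest and 44.4 and 31.2 CPM after LPS, log2 change -2.30 ± 0.29) and Icosl (151 and 109 CPM at rest and 18.3 and 9.39 CPM after LPS, log2 change -3.29 ± 0.18) fell. Of 17 cytokine genes, with the same background, 2 rose and 9 fell. Il10, the anti-inflammatory cytokine, rose from 0.987 and 2.31 CPM to 21.3 and 19.8 CPM (log2 change 3.68 ± 0.38, adjusted p = 0.00222). Ebi3, a subunit of interleukins 27 and 35, was called (log2 change 0.81 ± 0.21, adjusted p = 0.0266). It was not called with DESeq2 or without 3 of the 4 libraries in turn. Cxcl9, a chemokine of interferon-stimulated macrophages, had 86 and 252 counts at rest and 0 in both LPS libraries of the gene table, along with the macrophage markers. With kallisto estimated counts its log2 change was -4.15, against -10.49 in the gene counts. Ltb, lymphotoxin β, fell from 236 and 148 CPM at rest (log2 change -2.87 ± 0.15, adjusted p = 0.000866). Of 20 cytokine receptors 1 rose (Il2ra) and 14 fell, among them Il4ra (272 and 254 CPM at rest and 85.5 and 81.6 CPM after LPS, log2 change -1.65 ± 0.12) and Ifngr1 (83.2 and 102 CPM at rest and 19.5 and 17.4 CPM after LPS, log2 change -2.32 ± 0.16). Of 25 interferon-stimulated genes 4 rose and 13 fell. Ifih1, the RNA sensor MDA5, rose from 28.6 and 23.8 CPM to 90.4 and 87.6 CPM (log2 change 1.77 ± 0.13). Rsad2, viperin, fell from 285 and 218 CPM to 2.003 and 2.44 CPM (log2 change -6.80 ± 0.24). Irf7 fell from 121 and 42.1 CPM to 22.1 and 11.7 CPM (log2 change -2.16 ± 0.19, a call lost without the ΔIRIS LPS library). The ISRE, searched as GAAANNGAAA, was found in 58.8% of the list's 17 promoters. Its share was 3.06% in promoters of genes that rose, 4.27% in those of genes that fell and 3.34% in all. This list was made of textbook genes, and the shares are a description.

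Of 20 Polycomb and DNA methylation enzymes 9 rose and 8 fell, beside 31.3% that rose and 31.4% that fell of all genes tested. Uhrf1 (30.9 and 33.5 CPM at rest and 342 and 360.1 CPM after LPS, log2 change 3.45 ± 0.12), which brings maintenance methylation to replicated DNA, Dnmt1 (116 and 91.2 CPM at rest and 395 and 394 CPM after LPS, log2 change 1.94 ± 0.14) and Ezh2 (27.03 and 27.5 CPM at rest and 158 and 181 CPM after LPS, log2 change 2.63 ± 0.13) rose. Cbx7 (101 and 83.9 CPM at rest and 18.6 and 32.3 CPM after LPS, log2 change -1.91 ± 0.29), Tet1 (log2 change -1.59 ± 0.26) and Ezh1 (log2 change -1.38 ± 0.13) fell. Of 16 BCL2 family genes, with the same background, 7 rose and 3 fell. The death factors Bbc3, or PUMA (2.83 and 4.52 CPM at rest and 19.9 and 14.4 CPM after LPS, log2 change 2.22 ± 0.33, adjusted p = 0.00573), and Bax (32.8 and 31.9 CPM at rest and 79.9 and 68.1 CPM after LPS, log2 change 1.19 ± 0.12) rose. Pmaip1, or NOXA, fell (67.1 and 123 CPM at rest and 24.2 and 18.6 CPM after LPS, log2 change -2.10 ± 0.34). The survival factors Bcl2 (log2 change -0.30 ± 0.12, adjusted p = 0.0814) and Mcl1 (log2 change -0.22 ± 0.11, adjusted p = 0.136) were not called. The Bcl2a1 copies are near-identical and were not read singly. Of 12 iron genes 2 rose and 7 fell, with Tfrc, the transferrin receptor, going from 111 and 196 CPM to 319.8 and 418 CPM (log2 change 1.31 ± 0.15, a call lost without the ΔIRIS LPS library). Fth1, ferritin, went from 223 and 326 CPM to 121 and 118 CPM (log2 change -1.18 ± 0.18). Hmox1 (log2 change -4.38 ± 0.27) and the iron exporter Slc40a1, both abundant in red-pulp macrophages, fell along with the macrophage markers. Of 27 lysosomal genes 1 rose and 13 fell, among them Ctsb (308 and 413 CPM at rest and 65.2 and 57.3 CPM after LPS, log2 change -2.54 ± 0.19). Cathepsins are abundant in macrophages, whose markers fell as well. The part of these cells was not tested. Of 49 splicing genes 35 rose and 2 fell, with a median of 0.64 and Hnrnpab at 149.7 and 185 CPM at rest and 462 and 508 CPM after LPS. Of 13 noncoding RNAs 7 rose and 4 fell, with the nuclear RNAs Malat1 (7784 and 8596 CPM at rest and 3116 and 1972 CPM after LPS, log2 change -1.72 ± 0.23, adjusted p = 0.0041) and Neat1 (log2 change -1.80 ± 0.34) lower after LPS and the snoRNA hosts Snhg3 (log2 change 1.76 ± 0.16) and Snhg4 (log2 change 1.56 ± 0.13) higher.

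The genes with the largest rise that both genotypes reached were led by Zbtb32 (mm10 chr7:30589681-30598909), a repressor that limits antibody responses, which had 42 and 31 counts at rest and 4366 and 6349 after LPS (1.80 and 1.12 CPM at rest and 156 and 204 CPM after LPS, log2 change 6.95 ± 0.32, adjusted p = 0.000791). Slc7a3, a cationic amino acid transporter, had 6 and 3 counts at rest and 561 and 490 after LPS, ratios of 77.9 in ΔleftPAL and 145 in ΔIRIS cells (exact counting interval of the latter 49.5 to 708, log2 change 6.62 ± 0.32, 4.97 with kallisto estimated counts). Bcat1, the cytosolic transaminase of branched-chain amino acids, went from 2.62 and 1.45 CPM to 67.8 and 83.98 CPM (log2 change 5.25 ± 0.33), and Mfsd2a, a lysolipid transporter, from 0.686 and 0.759 CPM to 21.8 and 21.1 CPM (log2 change 4.88 ± 0.22). Wnt10b, a Wnt ligand, went from 0.343 and 0.361 CPM to 15.1 and 13.99 CPM (log2 change 5.34 ± 0.27). Pdcd1, the inhibitory receptor PD-1, had 5 and 1 counts at rest and 305 and 342 after LPS. The next were Mcm10, Psrc1 (log2 change 4.28 ± 0.17), Mybl2, Shcbp1 (log2 change 4.11 ± 0.16), Hid1 (log2 change 5.15 ± 0.29), Cdc45, Hist1h3g, Ccnb1 and Akap1 (log2 change 3.96 ± 0.17), most of them genes of the cell cycle.

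Of the 15 genes with the largest fall that both genotypes reached, 8 belong to red cells and their precursors and 6 are abundant in macrophages. Among red cell genes, Slc4a1, the band 3 anion exchanger, had 5718 and 12817 counts at rest and 3 and 7 after LPS, Alas2 of haem synthesis 14660 and 15108 against 16 and 45, and Hbb-bs, a β globin, 479384 and 411542 against 804 and 1841. Hbb-bt, Hba-a1 and Hba-a2 fell with them. Among macrophage genes, C1qa had 1989 and 3163 counts at rest and 0 in both LPS libraries, at least 796-fold lower in ΔleftPAL and at least 1180-fold lower in ΔIRIS cells against a floor of 3 counts per library. Vcam1 had 4752 and 7667 counts against 4 and 1, Csf1r 4127 and 6532 against 8 and 5 and Slc40a1 3087 and 4535 against 3 and 1, and C1qb and C1qc fell with them. The remaining gene, Gda, guanine deaminase, had 3113 and 4219 counts against 6 and 3. With kallisto estimated counts the log2 changes of Slc40a1 (-7.39 against -11.00), Csf1r (-8.81 against -9.84) and Gda (-8.84 against -9.83) were smaller.

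By gain in mean CPM the leading genes after Ighm were the noncoding Gm26917 (log2 change 1.76 ± 0.14) and Yam1 (log2 change 1.96 ± 0.13), Eef1a1, the translation elongation factor (5843 and 5095 CPM at rest and 7768 and 6821 CPM after LPS), AY036118, Hsp90ab1, Igkc, Npm1, Ptma, which encodes prothymosin α (804 and 853 CPM at rest and 2240.2 and 2127 CPM after LPS, adjusted p = 0.00147), and Mki67. The Eef1a1 call was lost without the replicate block or any 1 library. AY036118 had 168 and 199 CPM at rest and 399.6 and 3588 CPM after LPS, its ΔIRIS LPS library stood apart, and its call was lost without either resting library. By loss the leading genes were, besides globins, Malat1 and Cd74, structural RNAs: mt-Rnr2 (log2 change -0.20 ± 0.17, adjusted p = 0.341) and Gm26191 (log2 change -0.28 ± 0.12, adjusted p = 0.0955), which were not called, mt-Rnr1 (adjusted p = 0.0536), not called either, and Rn7sk (log2 change -0.98 ± 0.12) and Gm24447 (log2 change -1.09 ± 0.12), which fell but were not called without 3 of the 4 libraries in turn.

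The changes of 582 genes (5.16%) differed by more than 1 on the log2 scale between the genotypes, which cannot be tested with 1 library for each, and some are given here. Ccl22, a chemokine that attracts T cells, went from 0.858 and 3.47 CPM to 146 and 8.33 CPM, a difference on the log2(CPM + 0.5) scale of 6.75 for ΔleftPAL and of 1.15 for ΔIRIS, and was not called (adjusted p = 0.0889). It passed without the replicate block (edgeR adjusted p = 0.0277) and without the ΔIRIS LPS library (adjusted p = 0.00165). Cdkn1a, also not called, differed by 3.57 and 0.70 on the same scale. Rps3a3, a processed pseudogene of a ribosomal protein that shares sequence with its parent, stood at 1.42 and 2.38 CPM at rest and 261 and 3.09 CPM after LPS. The other way round, Mybl1, a MYB family factor, went from 14.5 and 2.64 CPM to 21.5 and 26.1 CPM, and Plk2, a stress-induced kinase, fell from 70.97 and 286 CPM to 12.2 and 6.66 CPM, in both cases with most of the difference between the genotypes in the resting libraries.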

How the data were processed

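RNA of splenic B cells was sequenced as stranded, rRNA-depleted total RNA in 150 nt pairs. The authors mapped reads to mm10 with STAR 2.4.0a and deposited raw fragment counts per gene name from featureCounts (Subread 1.4.6-p1, --primary -p -s 1 -M, Ensembl 77), in which reads with several hits count at each. The authors also deposited kallisto 0.42.3 estimated counts and TPM per transcript, which were summed per gene name here, the former rounded. A row without a gene name held 0.00876% to 0.0264% of counts and was left out. Totals were 23615496 to 29776108 counts, which sets the precision. Intervals and floors cover counting error only.

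Genes averaging 50 counts or more were tested with edgeR 4.0.16 (quasi-likelihood, TMM, ~ genotype + condition, 1 residual degree of freedom, prior degrees of freedom 3.41) in R 4.3.3, with Benjamini-Hochberg adjustment over 11286 genes. A second rule took genes at least 2-fold changed in both genotypes on log2(CPM + 0.5), with no test. On simulated counts over 11286 genes, 62 of 100 genes changed 2-fold and 98 of 100 changed 4-fold were recovered. That run changed far fewer genes than were called here and held every dispersion at the trend. A second run gave the 7073 called genes their fitted changes and let dispersions vary around the trend. It recovered 5104 of them and called 118 unchanged genes. DESeq2 1.42.0, limma 3.58.1, other scalings, filters and tables, and leaving out each library were alternatives.

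Genes were named as the 15 with the largest rise and fall that both genotypes reached, the 10 with the largest gain and loss in mean CPM, the extremes and best-known members of each list, those that moved 2-fold in opposite directions in the genotypes, and cell type markers. Rps3a3, Mybl1 and Plk2 were chosen after their values were seen. The members, the lists and the motifs were chosen with earlier results of these data known. Promoters were searched with Python 3.11.15 in RefSeq sequences of GRCm38.p6. Some genes that this rule selected are not reported here.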

Additional observations from a re-analysis of the deposited data

Results flagged for a closer look

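The 8 genes below moved at least 2-fold upward in 1 genotype and at least 2-fold downward in the other, with 1 library for each state and genotype, so the difference was not tested. Values are differences on the log2(CPM + 0.5) scale, LPS minus resting, and none of these genes was called in the fit over both genotypes. Gm10800 changed by 3.92 in ΔleftPAL and -1.50 in ΔIRIS cells, Gm21738 by 3.17 and -1.31, Gm10722 by 2.90 and -1.31, Gm26870 by 3.14 and -1.20 and Gm10718 by 2.82 and -1.04. In these 5 the ΔIRIS resting library was above the ΔleftPAL resting library, and the ΔleftPAL LPS library was the highest of the 4. Reads with several hits count at each gene, so these 5 are not necessarily separate signals. Whether they share reads was not tested. Gm20730, an immunoglobulin light-chain variable segment, changed by -3.07 and 1.37, with 0 counts in the ΔleftPAL LPS library. Adm, the peptide hormone adrenomedullin, changed by 1.10 and -1.68. The unnamed transcript 4931429I11Rik changed by 1.22 and -1.62.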

How the results depend on the processing

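The counts of genes that rose (3528) and fell (3545) stayed within 1.5 times of these under every alternative run. The ranges were 2674 to 4529 rises and 2927 to 4548 falls over the other tools, scalings, filters and tables, and 2599 to 3336 rises and 2487 to 3327 falls without 1 library. DESeq2 called 3155 rises and 3184 falls and shared 88.6% of each direction's calls, and kallisto estimated counts shared 90.7% and 84.2%. The genotype number pairs the libraries by genotype. Without the replicate block 3496 genes rose and 3528 fell, and Gm20730 (0.87) and 4931429I11Rik (0.05) turned sign. Counts by the 2-fold rule in both genotypes moved past 1.5 times when 4-fold was asked for (415 rises, 601 falls) and, for falls, with a prior of 5 CPM (1036), and were 1955 to 2012 rises and 2000 to 2262 falls in 1 genotype alone. Gene by gene, the log2 change moved by a median of 0.07 with total counts, 0.12 with kallisto estimated counts and -0.13 with TPM over the genes shared with the main test, while the median over the genes that each of these tested was 0.06, -0.01 and -0.28, against -0.02. With the other cells' markers, immunoglobulin, mitochondrial and small structural RNA genes left out of the fit and its scaling, chosen after seeing the data, 3515 genes rose and 3469 fell of 11062. This leaves the reads that other cells add to the remaining genes in place and does not bear on their part. No list median changed sign with total counts, without immunoglobulin genes in the scaling or with kallisto.

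With kallisto estimated counts the sign turned for Hist3h2a (1.47), Rpl24 (0.97), Irf4 (0.03), Mrpl24 (0.12), Plcg2 (0.07), Sdc1 (0.01), Syk (0.04), mt-Atp6 (0.05) and mt-Co1 (0.04), and with total counts for Mrpl24 (0.04) and Plcg2 (0.03). Apart from Hist3h2a and Rpl24, these were not called in the main test. The cause was not tested. Calls ended with DESeq2 for Ebi3, Gm8210, Rpl24, Rprl3 and Trp53bp1, with kallisto for Cdt1, Scd1, Trp53bp1 and mt-Nd6, with total counts for Scd1 and Trp53bp1, and without the block for Cenpa, Eef1a1, Gm8210, Rprl3, Scd1 and mt-Nd6. Some genes not called in the main test passed in other runs, and the lists here are not complete. With DESeq2 they included Atf4, Cdkn1a, Mybl1, Nfkbia, mt-Rnr1 and Flt3, and with kallisto Nfkbia, Flt3, Rps3a3 and mt-Co2 (0.96). Without the block they included Ccl22 (5.12), Rps3a3 (6.10) and Flt3, with total counts Nfkbia and Flt3, and without immunoglobulin genes in the scaling Flt3. Without the ΔIRIS LPS library, those that passed included Ccl22, Flt3, Gm20730, Itgam and Rps3a3. Without ΔleftPAL resting they included Atf4, Ifi27l2a, Irf4, Mybl1, mt-Nd4 and mt-Rnr1. Without ΔIRIS resting they included Cdkn1a, Flt3, Gm10800, Gm26870, Lck, Mybl1, Nfkbia and Psmb10. Among called genes named above, the changes that kallisto moved by over 1.5 times included those of Ccnd1 (-5.36), Cxcl9 (-4.15), Slc40a1 (-7.39), Csf1r (-8.81), Gda (-8.84), Il2ra (1.27), Slc7a3 (4.97), Exo1 (3.11), Shmt1 (2.69), mt-Nd6 (0.20) and Gm8210 (11.79).

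Leaving out each library in turn used the fit without the block, in which the lone library is assumed to vary like the other pair. The sign turned in at least 1 of the 4 fits for 4931429I11Rik (-1.70 to 0.82), Blnk (-0.01 to 0.19), Ctsz (-0.07 to 0.48), Gm10722 (-0.65 to 2.90), Gm10800 (-0.64 to 3.30), Gm20730 (-10.26 to 1.86), Gm21738 (-0.60 to 3.02), Gm26870 (-0.38 to 2.61), Gm8210 (-0.01 to 7.48), Ifi27l2a (-0.18 to 0.89), Irf4 (-0.64 to 0.44), Itgam (-1.30 to 0.23), Mrpl24 (-0.09 to 0.02), Psmb10 (-0.47 to 0.11), Sdc1 (-0.36 to 0.16), Vars (-0.10 to 0.26), mt-Atp6 (-0.56 to 0.46), mt-Co1 (-0.36 to 0.21), mt-Nd3 (-0.16 to 0.41), mt-Nd4 (-0.92 to 0.13) and mt-Rnr2 (-0.43 to 0.04), where the lowest and highest log2 change over the fits are given. Rprl3 (0.00 to 11.33) had no change left without the ΔleftPAL LPS library. Calls of other genes named above ended as well, given with the same range. These were Cenpa (0.26 to 1.24), Gm24447 (-1.43 to -0.71), Hspa5 (0.41 to 1.07), Nfkb1 (0.32 to 0.44), Rn7sk (-1.29 to -0.64), Trp53bp1 (-0.47 to -0.32) and mt-Nd6 (0.23 to 1.84) without the ΔleftPAL LPS, ΔIRIS LPS or ΔleftPAL resting library, Psmb8 (0.56 to 1.12) and Tnfaip3 (-2.44 to -0.89) without the ΔleftPAL LPS or ΔIRIS LPS library, Irf7 (-2.84 to -1.32), Pax5 (-0.73 to -0.63) and Tfrc (0.91 to 1.74) without the ΔIRIS LPS library, Itgal (0.41 to 0.64), Rpl24 (-1.03 to -0.81) and Slc2a1 (-0.92 to -0.41) without the ΔleftPAL LPS, ΔIRIS LPS or ΔIRIS resting library, Ebi3 (0.59 to 1.03) and Igj (0.57 to 1.43) without the ΔleftPAL LPS, ΔleftPAL resting or ΔIRIS resting library. Also affected were Eef1a1 (0.32 to 0.52) and Scd1 (-0.63 to -0.09) without the ΔleftPAL LPS, ΔIRIS LPS, ΔleftPAL resting or ΔIRIS resting library, AY036118 (1.12 to 4.29) without the ΔleftPAL resting or ΔIRIS resting library, Cdt1 (-0.73 to -0.45) without the ΔIRIS LPS or ΔIRIS resting library, Igkc (0.76 to 1.68) without the ΔleftPAL LPS or ΔIRIS resting library, Tlr4 (-0.86 to -0.60) without the ΔleftPAL LPS library.

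Motif shares in the 200 bases before the start kept their order against all promoters for each motif but the E-box (7.41% of the list, 7.77% of all). The depth limits genes under 50 mean counts, which were not tested.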
